A study of Homo sapiens with 6 samples.

Results

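The small Cajal body RNAs, whose genes carry SCARNA symbols, were followed in MDA-MB-231 cells with and without S-adenosylmethionine (SAM). Members were taken from the platform annotation as every symbol that starts with SNORA, SNORD or SCARNA and goes on with a number, with 1 row for each symbol. This gave 23 SCARNA genes of the 14884 gene symbols on the table, which holds 53617 transcript clusters (probe sets for one transcribed region) in all. The annotation gave 0 rows an SNORA or SNORD symbol, so small nucleolar RNAs (snoRNAs) are not among the members, and classes of guide were compared within the Cajal body RNAs only. A further 6 SCARNA genes of RefSeq had no row of that name and were not analysed here.

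Affymetrix Human Gene 2.0 ST arrays were run on 3 control cultures and 3 cultures given 200 μM SAM, with 6 arrays in all. MDA-MB-231 is an established human line of triple-negative breast cancer with mesenchymal features, and both groups were grown in the same medium with serum. Control cells are untreated according to the labels, and vehicle-treated according to the in vitro methods of the paper. The median log2 signal of the arrays was 4.75 to 4.85. The markers VIM, CD44 and AXL lay well above it, at 9.33, 7.90 and 10.5, while PGR, the progesterone receptor gene, lay below it at 4.12 and ESR1, the estrogen receptor gene, and PECAM1, an endothelial marker, above it at 5.09 and 5.63. ALB, a liver gene, lay below it at 4.72. Of these 7 markers, CD44 and ESR1 had a P under 0.05 in limma, with log2 fold changes of 0.41 (SE 0.14) and 0.32 (SE 0.13), and VIM was lower on all 3 SAM arrays (-0.29, SE 0.13). Their part in the values of the Cajal body RNAs was not tested. Control replicate 1 stood apart from the other 5 arrays, with a mean correlation of 0.964 to them (0.974 or more for each other array). The RNA of both groups came from 3 independent experiments. The main fit did not match Control and SAM arrays by experiment, and the labels do not say which belong together. Its p-values measure the spread between these cultures, with any difference between experiments included. In bulk RNA such as this, fewer cells with an RNA and less of it in each cell cannot be told apart.

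Cajal bodies are compartments of the nucleus in which the small nuclear RNAs (snRNAs) of the spliceosome are modified and assembled into particles. SCARNAs guide these modifications by base pairing with the snRNA. A guide of the box C/D class directs the methyltransferase fibrillarin, which takes the methyl group from SAM, to a 2′-O position of a ribose. A guide of the box H/ACA class directs the pseudouridine synthase dyskerin, which does not use SAM. Some SCARNAs carry both kinds of domain, and most SCARNAs are cut from the introns of other genes. By general knowledge of these RNAs, 5 members were put in the C/D class (SCARNA2, SCARNA7, SCARNA9, SCARNA9L and SCARNA17), 4 in the mixed class (SCARNA5, SCARNA6, SCARNA10 and SCARNA12) and 13 in the H/ACA class, and SCARNA27 was not assigned.

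None (0) of the 23 Cajal body RNAs passed the thresholds of the methods, an unadjusted P under 0.01 in limma together with a fold change over 1.5, against 1.09% of all transcript clusters. In total 3 had an unadjusted P under 0.05, SCARNA9, SCARNA2 and SCARNA9L, and each of the 3 is a C/D guide with a higher signal in SAM-treated cells. Among all transcript clusters, 7.99% had a P under 0.05, made up of 3.59% that were higher and 4.4% that were lower. No transcript cluster of the table (0%) reached an adjusted p under 0.05 by the Benjamini-Hochberg method, and the lowest adjusted p among the members was 0.566. Of the 23 members, 16 had a positive and 7 a negative log2 fold change, with a median of 0.09. Over all transcript clusters 49.4% were positive, with a median of -0.003, and over the 1072 microRNA genes, another set of short RNAs, the median was -0.024. Whether the members differ as a set from other genes was not tested.

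**Figure D1:**
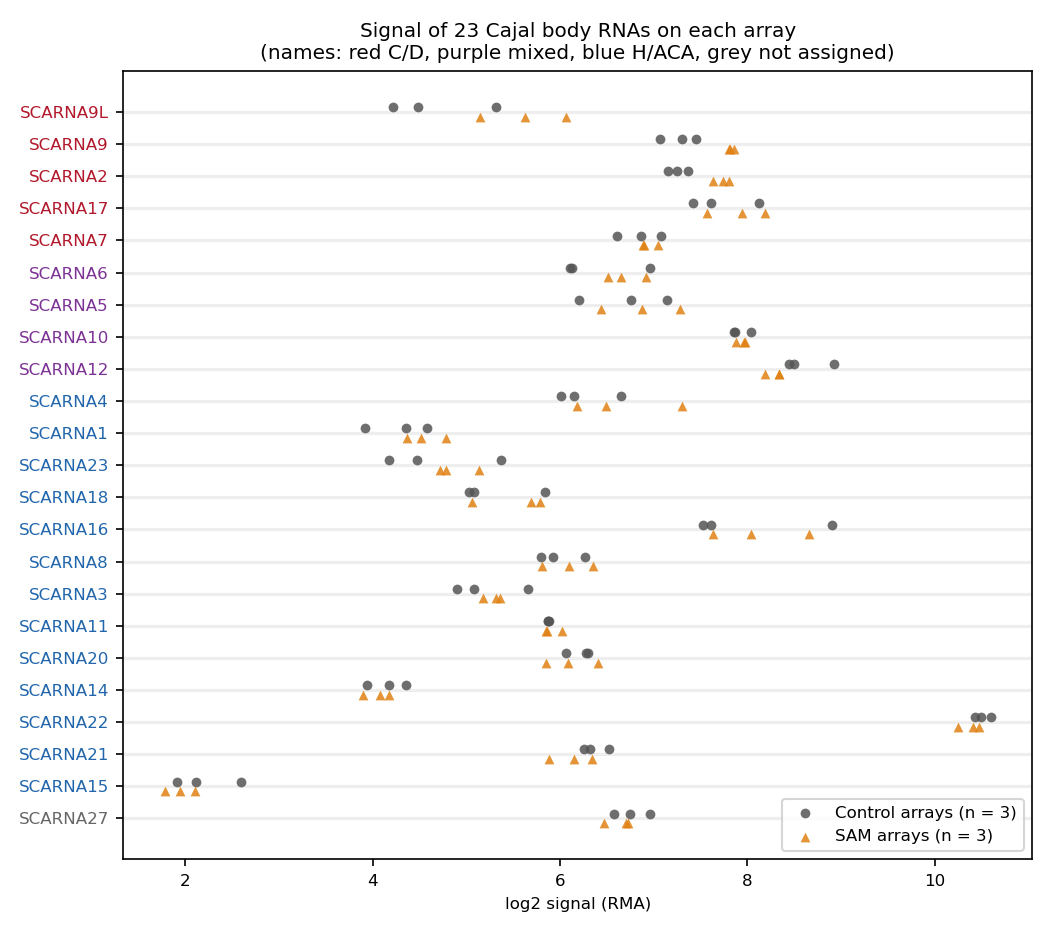
Log2 signal (x axis, RMA) of the 23 Cajal body RNAs (rows) on each of 3 Control arrays (circles) and 3 SAM arrays (triangles), with names colored by guide class. The groups do not overlap for SCARNA9 and SCARNA2, which are higher in SAM, and for SCARNA12, which is lower.

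SCARNA9 guides methylation of the U2 snRNA, which pairs with the branch site of introns. Its log2 signal was 7.07, 7.30 and 7.45 in control cells and 7.86, 7.80 and 7.82 in SAM-treated cells. All 3 SAM arrays lay above all 3 Control arrays, and the SAM values differed little among themselves (SD 0.031, n = 3, against 0.19 in Control). The log2 fold change was 0.56 (SE 0.14, 95% confidence interval 0.23 to 0.88), with a P of 0.00451 and an adjusted p of 0.566 in limma. This is a 1.47-fold difference, just under the fold minimum. SCARNA9 passed both thresholds when the values were quantile-normalized again (log2 fold change 0.62), after cyclic loess (0.62) and without Control replicate 3 (0.645). Its P was over the limit of 0.01 without any one of the other 5 arrays (0.0103 to 0.0177 in limma) and with a replicate block (0.012).

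SCARNA2, a long C/D guide that also acts on the U2 snRNA, lies in no other RefSeq gene, unlike the other 22 members. Its log2 signal was 7.24, 7.36 and 7.15 in control cells and 7.81, 7.63 and 7.74 in SAM-treated cells, again with no overlap. The log2 fold change was 0.47 (SE 0.13, 95% confidence interval 0.18 to 0.77), a 1.39-fold difference with a P of 0.00637 in limma and an adjusted p of 0.566. With no fold minimum, SCARNA9 and SCARNA2 were the 2 members with a P under 0.01, where 1.72% of all transcript clusters had one (0.699% with a higher signal). With a replicate block neither did, at a P of 0.012 and 0.0187 in limma, and SCARNA9L had one of 0.00396. The P of SCARNA2 was also over 0.01 without any one of 4 of the 6 arrays (up to 0.0274, without Control replicate 3) and after centering on array medians (0.0116).

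SCARNA9L is a SCARNA9-like copy within the EIF1AX gene of the X chromosome. It had the largest fold change of the 23 members and, after SCARNA16, the largest standard error. Its log2 signal was 5.31, 4.48 and 4.21 in control cells and 6.06, 5.14 and 5.63 in SAM-treated cells, so that Control replicate 1 lay above SAM replicate 2. The Control mean of 4.67 lay below the array medians of 4.75 to 4.85, so SCARNA9L was dim in control cells, and the SAM mean of 5.61 lay above them. The log2 fold change was 0.94 (SE 0.33, 95% confidence interval 0.18 to 1.71), with a P of 0.0223 in limma and an adjusted p of 0.584. Without Control replicate 1 the log2 fold change was 1.27 and passed both thresholds. SCARNA9 and SCARNA9L resemble each other in sequence, and whether their probes tell them apart is not known here, so these may not be separate measurements.

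The other C/D guides differed less. SCARNA17, a guide for the U4 snRNA within the noncoding gene SNHG22, had log2 signals of 8.13, 7.62 and 7.42 in Control and 8.19, 7.94 and 7.57 in SAM. SCARNA7, a guide for the U1 snRNA, had 6.87, 6.61 and 7.08 in Control and 6.89, 6.89 and 7.05 in SAM. In both the groups overlapped, and the log2 fold changes were 0.18 (SE 0.23, 95% confidence interval -0.36 to 0.72) and 0.09 (SE 0.15, 95% confidence interval -0.27 to 0.45). The interval of SCARNA17 includes a difference as large as that of SCARNA2, and the interval of SCARNA7 ends just below it. All 5 C/D guides thus had a positive log2 fold change, from 0.09 to 0.94 with a median of 0.47. Without Control replicate 2, that of SCARNA7 was -0.0291.

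**Figure D2:**
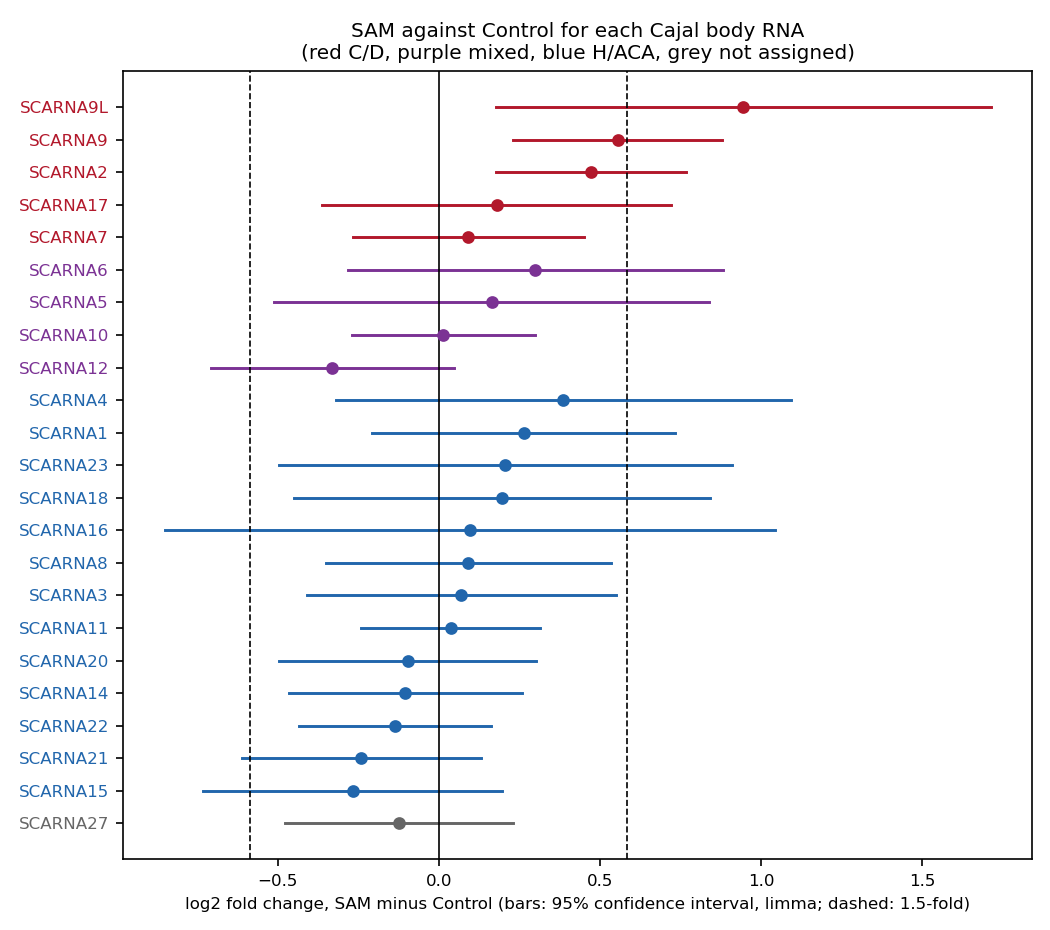
Log2 fold change (SAM minus Control, x axis) of each Cajal body RNA (rows) with its 95% confidence interval from limma, 3 arrays in each group, and dashed lines at a 1.5-fold difference. The intervals of SCARNA9L, SCARNA9 and SCARNA2 lie above 0, and those of the other 20 members cross it.

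The mixed guides, which carry a C/D and an H/ACA domain in one RNA, went in both directions. SCARNA12 was the only member with lower values on all 3 SAM arrays, with log2 signals of 8.44, 8.49 and 8.92 in Control and 8.19, 8.34 and 8.34 in SAM. Its log2 fold change was -0.33 (SE 0.16, P of 0.0786 in limma), and without Control replicate 3, its highest array, the value was -0.178. SCARNA10, the U85 RNA that guides both modifications of the U5 snRNA, was nearly level, with log2 signals of 8.04, 7.86 and 7.87 in Control and 7.96, 7.98 and 7.88 in SAM. Its 95% confidence interval of -0.27 to 0.30 leaves out a 1.5-fold difference in either direction. SCARNA5 and SCARNA6, which share the host gene ATG16L1, had log2 fold changes of 0.16 (SE 0.29) and 0.30 (SE 0.25), and in both the groups overlapped. In SCARNA6, Control replicate 1 was at 6.96 and the other Control arrays at 6.10 and 6.12, next to 6.92, 6.66 and 6.51 in SAM. The median of the class was 0.09.

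None (0) of the 13 H/ACA guides had a P under 0.05 in limma, and the groups overlapped in all 13. With 7.99% of all transcript clusters at such a P and 15.1% without overlap, counts of 0 in so few genes do not set the class apart. Of these 13, 8 had a positive and 5 a negative log2 fold change, from -0.27 to 0.39 with a median of 0.07. SCARNA22, an RNA of the H/ACA class within the histone methyltransferase gene NSD2, had log2 signals of 10.43, 10.60 and 10.50 in Control and 10.25, 10.47 and 10.41 in SAM. Its log2 fold change was -0.14 (SE 0.13, 95% confidence interval -0.43 to 0.16). SCARNA11, within the chromatin remodeler gene CHD4, had values of 5.88, 5.88 and 5.87 in Control and 5.86, 6.02 and 5.85 in SAM. Its 95% confidence interval was -0.24 to 0.31. The groups were close in both genes, and both intervals leave out a 1.5-fold difference in either direction.

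Other H/ACA guides were less precisely measured. SCARNA16 had log2 signals of 8.90, 7.52 and 7.62 in Control and 8.66, 7.63 and 8.04 in SAM. Both arrays numbered 1 were high, and the 95% confidence interval of its log2 fold change of 0.10 ran from -0.85 to 1.04. A single array set the value of another. SCARNA4 had values of 6.65, 6.02 and 6.15 in Control and 6.49, 6.18 and 7.30 in SAM, and its log2 fold change of 0.39 (SE 0.30) was 0.065 without SAM replicate 3. SCARNA23, within POLA1, had a log2 fold change of 0.21 (SE 0.30) that was 0.557 without Control replicate 1 and -0.043 without Control replicate 3. SCARNA15, an H/ACA guide known also as a source of a microRNA-like fragment, had a mean log2 signal of 2.07. Together with SCARNA1, SCARNA14 and SCARNA23 it lay below the highest array median by its mean over the 6 arrays, whereas the other 19 members lay above it. Among the remaining H/ACA guides, the log2 fold changes were 0.26 (SE 0.20) for SCARNA1, 0.20 (SE 0.28) for SCARNA18, 0.09 (SE 0.19) for SCARNA8 and 0.07 (SE 0.21) for SCARNA3. They were -0.10 (SE 0.17) for SCARNA20, -0.10 (SE 0.15) for SCARNA14, -0.24 (SE 0.16) for SCARNA21 and -0.27 (SE 0.20) for SCARNA15. The groups overlapped in each of these 8. SCARNA27, of no assigned class, had a log2 fold change of -0.12 (SE 0.15).

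Between the groups, 3 of the 23 members did not overlap (2 higher and 1 lower in SAM), next to 15.1% of all transcript clusters (7.12% higher and 7.95% lower). With 3 arrays against 3, an exact permutation test of a single gene cannot go below a two-sided p of 0.1. Within the C/D class the median log2 signal of the 5 genes was 7.07, 7.30 and 7.15 on the Control arrays and 7.81, 7.63 and 7.57 on the SAM arrays. The H/ACA median was 5.88, 5.80 and 5.87 in Control and 5.85, 5.81 and 5.85 in SAM. The C/D medians of the groups did not overlap and the H/ACA medians did. Each of these medians is the value of a single gene. In the C/D class it was SCARNA9 or SCARNA2, described above, except on SAM replicate 3, where it was SCARNA17. In the H/ACA class it was SCARNA11, SCARNA8 or SCARNA20. The medians therefore repeat values of single genes and add no separate measurement of a class. Genes of a class are not replicates, and the difference between the classes was not tested.

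**Figure D3:**
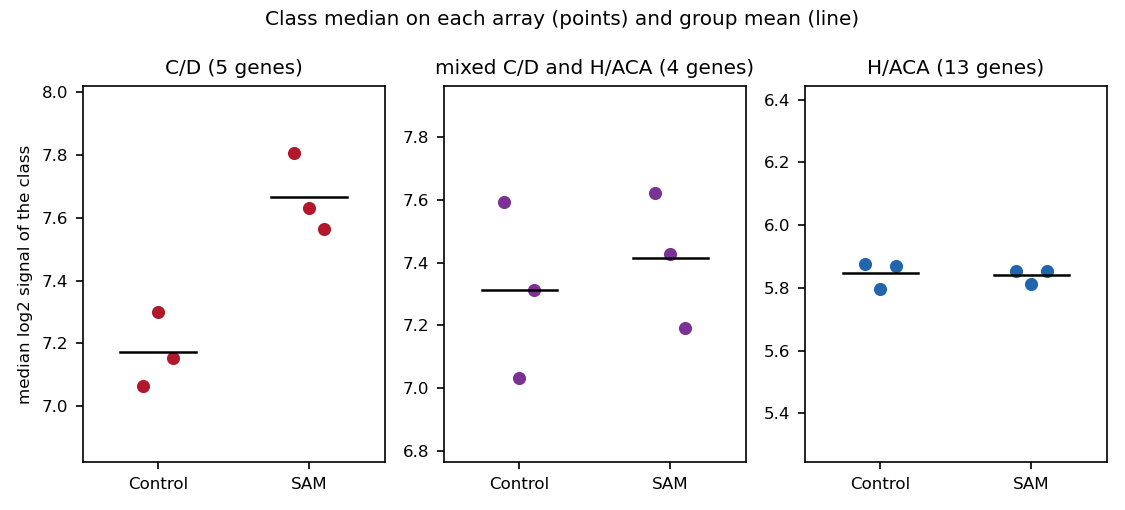
Median log2 signal over the genes of each guide class (y axis) on each array (points), for Control and SAM, with the group mean as a line and panels of equal height. The 3 SAM arrays lie above the 3 Control arrays for the C/D guides (7.57 to 7.81 against 7.07 to 7.30) and overlap for the mixed and the H/ACA guides. Each C/D point is the value of a single gene, SCARNA9, SCARNA2 or SCARNA17, and each H/ACA point is also that of a single gene.

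Class and length went together. The C/D members are 330 to 421 bases long in RefSeq, the mixed ones 266 to 330 and the H/ACA ones 125 to 187. Across the 23 genes, which share the same 6 arrays, length and log2 fold change had a Spearman correlation of 0.46 and a Pearson correlation of 0.50, given as a description. Class and length therefore cannot be told apart here. The RNA was purified on RNeasy silica columns, a type known to keep short RNAs poorly, and the part of length in the signal of these genes was not tested.

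Single arrays bore on many of the smaller differences. Among the 3 Control arrays, Control replicate 1 was the highest in 15 of the 23 members, against 42.7% of all transcript clusters. This held for 10 of the 13 H/ACA guides and 2 of the 5 C/D guides. Among the SAM arrays, replicate 1 was the highest in 10 of the 23 members (43.5%), against 30.3% of all transcript clusters. It was so in 4 of the 5 C/D guides and 4 of the 13 H/ACA guides. Whether the arrays numbered 1 have something in common was not tested. Without Control replicate 1, 6 members had a P under 0.05 in limma instead of 3. The added ones were SCARNA6 (log2 fold change 0.581), SCARNA23 (0.557) and SCARNA12 (-0.419). The H/ACA median was then 0.228, and the C/D median 0.452. Without Control replicate 2 the H/ACA median was -0.0715 and the C/D median 0.527. Directions depended most on Control replicate 2. Without it, 10 members had a positive and 13 a negative log2 fold change. Without Control replicate 1 these counts were 16 and 7, as with all arrays, and without any one of the other arrays 13 to 15 members were positive. Whichever array was left out, SCARNA2 stayed between 0.421 and 0.527, SCARNA9 between 0.452 and 0.645 and SCARNA9L between 0.717 and 1.27, although the P of SCARNA9L in limma was over 0.05 in 4 of these 6 fits (log2 fold change 0.719 without SAM replicate 1, for example).

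**Figure D4:**
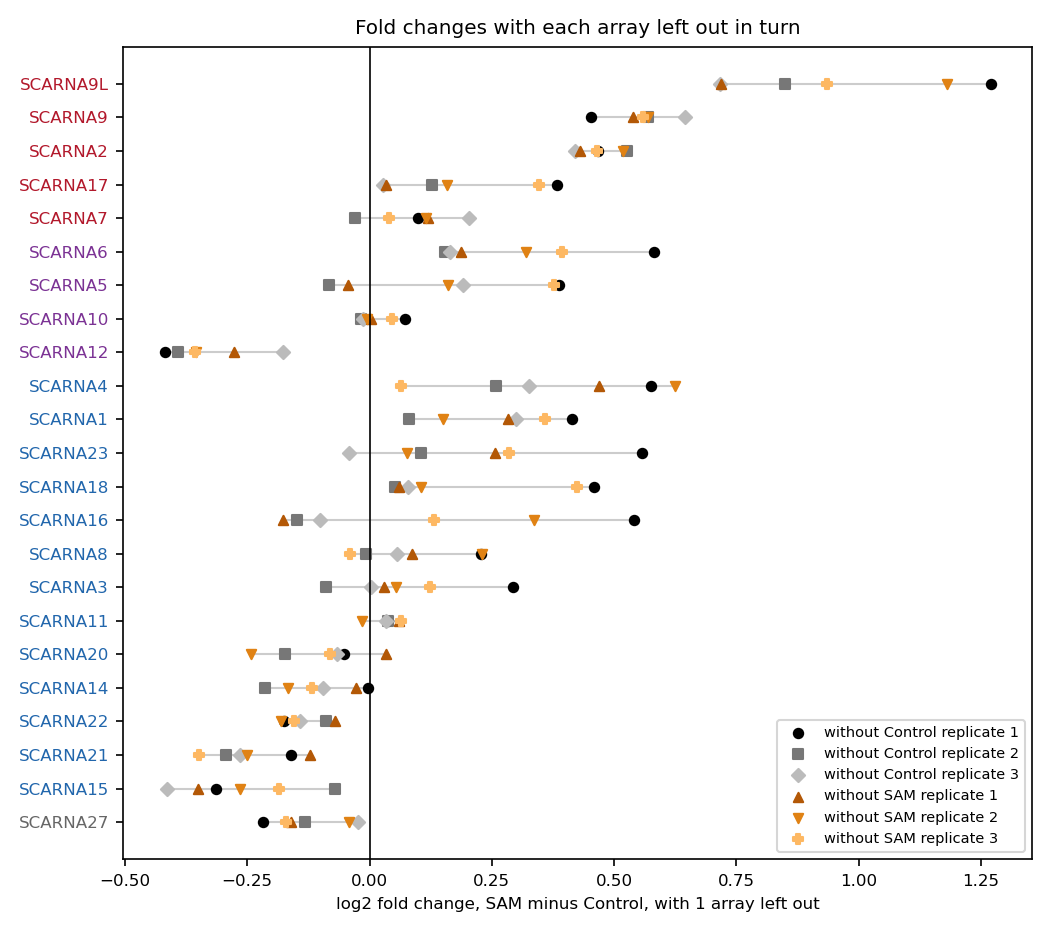
Log2 fold change (SAM minus Control, x axis) of each Cajal body RNA (rows) with 1 of the 6 arrays left out, 1 symbol for each array. SCARNA2, SCARNA9 and SCARNA9L stay above 0 in every case, as do guides of other classes, such as SCARNA6 and SCARNA1. Guides of each class also cross 0. Examples are SCARNA7 (C/D, -0.0291 to 0.204), SCARNA5 (mixed, -0.0837 to 0.387) and SCARNA16 (H/ACA, -0.177 to 0.541).

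None of the measured proteins that work with these RNAs passed the thresholds at the level of their RNA. Of 24 genes listed for guide particles and Cajal bodies, 17 had a row with a name, and 0 were called higher and 0 lower (median log2 fold change -0.01), where 1.09% of all transcript clusters were called, too few for a count of 0 to set these genes apart. FBL, which encodes fibrillarin, had log2 signals of 9.97, 9.75 and 9.94 in Control and 10.1, 9.71 and 9.94 in SAM. Its log2 fold change of 0.03 (SE 0.15) stood beside values of -0.01 (SE 0.13) for its partner NOP58 and -0.24 (SE 0.14) for SNU13, which binds the C/D motif. Among the H/ACA core proteins, NHP2 was at 0.27 (SE 0.18), NOP10 at 0.07 (SE 0.13) and GAR1 at -0.13 (SE 0.12). Only these 3 of the 4 genes listed for the H/ACA core had a row with a name, so dyskerin has no value here. COIL, which encodes the Cajal body scaffold coilin, was at -0.12 (SE 0.18), and TGS1, a cap methyltransferase of snRNAs that uses SAM, at -0.05 (SE 0.13).

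In limma, 2 of the 17 had a P under 0.05, near the 7.99% of all transcript clusters. NOLC1, a phosphoprotein that carries guide particles between nucleoli and Cajal bodies, had log2 signals of 8.82, 8.93 and 8.90 in Control and 9.22, 9.15 and 9.16 in SAM. The difference was 0.29 on the log2 scale (SE 0.12, adjusted p of 0.614 in limma). PIH1D1, a subunit of the chaperone complex that assembles C/D particles, had 9.22, 8.74 and 8.86 in Control and 8.41, 8.36 and 8.71 in SAM, which gave a difference of -0.44 on the log2 scale (SE 0.17, adjusted p of 0.613 in limma). In both genes the groups did not overlap.

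Most members lie within another gene, and the signal of that gene was set beside theirs. For 13 members, a gene whose RefSeq span contains the member had a row with a name, 12 different genes in all. Member and containing gene had the same sign of log2 fold change in 4 of the 13 pairs and opposite signs in 9. CEP295, a centrosome gene that contains SCARNA9, had a log2 fold change of -0.10 (SE 0.19), next to 0.56 for SCARNA9 itself. CHD3, a chromatin remodeler gene around SCARNA21, was at -0.44 (SE 0.13) and the RNA at -0.24 (SE 0.16). TIPIN and FSD2 were at 0.39 (SE 0.15) and 0.45 (SE 0.18), while SCARNA14 and SCARNA15 within them were at -0.10 and -0.27. None (0) of the 12 containing genes was called and 3 had a P under 0.05 in limma, next to 1.09% and 7.99% of all transcript clusters. A probe within an intron may also detect the unspliced RNA of the host gene, and the table of gene spans used here gives no strand, so these values describe positions and not transcription from one unit.

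**Figure D5:**
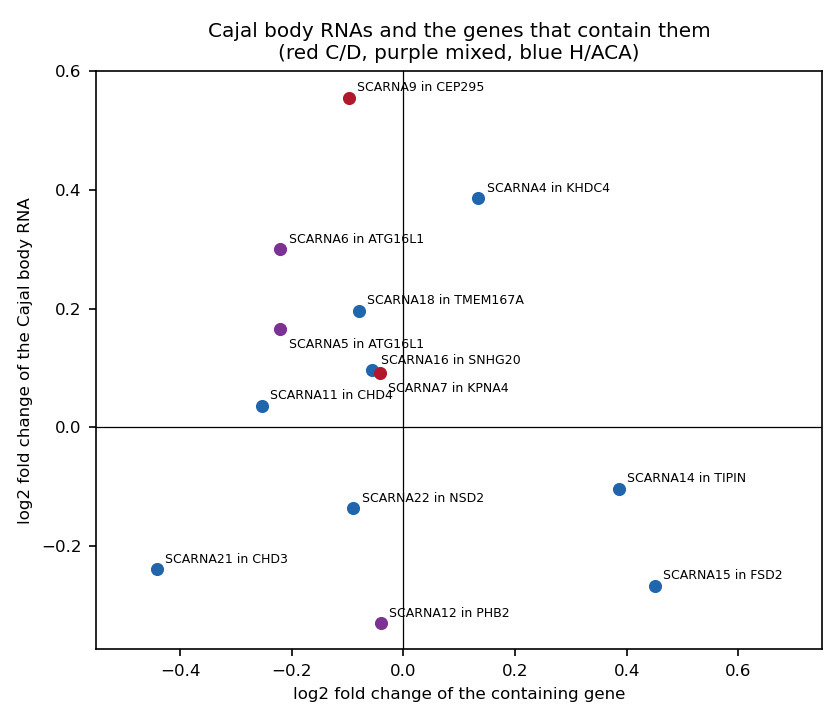
Log2 fold change (SAM minus Control) of 13 Cajal body RNAs (y axis) against that of the gene that contains each of them (x axis), with points colored by guide class. SCARNA9 lies at 0.56 with CEP295 at -0.10, and 9 of the 13 points fall in quadrants of opposite sign.

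A few snoRNA rows have a name only because the study lists them among its changed genes, chosen on these same arrays, and they are not members. Their direction, size, separation of groups and passing of the thresholds are therefore not independent evidence. SNORD9, a C/D snoRNA, had log2 signals of 7.04, 6.70 and 7.04 in Control and 7.72, 7.58 and 8.01 in SAM (log2 fold change 0.84, SE 0.17). SNORD119, also of the C/D class, had 4.41, 5.23 and 4.83 in Control and 5.50, 5.56 and 5.67 in SAM (0.75, SE 0.21). SNORA22, of the H/ACA class, had 9.21, 10.31 and 10.12 in Control and 10.95, 10.69 and 11.18 in SAM (1.06, SE 0.29), so the largest of these 3 differences was that of an H/ACA guide. In all 3 the SAM arrays lay above the Control arrays and both thresholds were passed, and the adjusted p lay between 0.517 and 0.573 in limma.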

How the data were processed

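RNA of 3 Control and 3 SAM cultures of MDA-MB-231 cells was hybridized to Affymetrix Human Gene 2.0 ST arrays. The authors used RMA from oligo (version not given in the sources used here), so the deposited values are log2 signals, background-corrected, quantile-normalized and summarized for each transcript cluster. Symbols came from the platform annotation (16098 rows with 1 symbol, 37519 with none). All 53617 transcript clusters, including 3575 whose ID precedes the annotated range, were fitted without a block or a filter (limma 3.58.1, lmFit and eBayes, under R 4.3.3). A call needed an unadjusted P under 0.01 and a fold change over 1.5, as in the methods. P was adjusted over all transcript clusters. Each member had 1 row, and 0 shared its values with another row. Genes, lengths and gene spans were matched by gene ID to RefSeq annotation of GRCh38.p14, and no sequences of these RNAs were used here. All 23 members are named, with full values for those with a P under 0.05, those whose groups did not overlap and examples of each class. The members and lists were chosen with earlier results of these data known, and the guide classes were written after the platform annotation had been read. The procedure was tested on simulated data with independent noise. These data held no differences between whole arrays or experiments, so the test does not cover such differences. The precision is limited by the number of arrays, 3 in each group. Alternatives were a filter on dim rows, named rows only, 3 other scalings, a trended and robust eBayes, a replicate block, other thresholds, averaged rows, and leaving out each array.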

Additional observations from a re-analysis of the deposited data

How the results depend on the processing

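No SNORA or SNORD member was named, so the counts and medians planned for these classes gave no value. The number of Cajal body RNAs past the thresholds was 0, and it was 1 after a second quantile normalization or cyclic loess (SCARNA9) and 1 with a replicate block (SCARNA9L, while SCARNA9 and SCARNA2 were at a P of 0.012 and 0.0187 in limma), 2 at P under 0.01 with no fold minimum, 3 at P under 0.05 with no fold minimum, and 0 to 1 with each array left out. Over all transcript clusters, arrays of the same number correlated at -0.0027, -0.0748 and 0.109 in their deviations from the group mean. These values show no pairs over all rows together. Pairing in the 23 members alone was not tested, and the labels do not say whether arrays of the same number share an experiment. The block moved the count over all transcript clusters from 582 to 659 and left the median of the 23 members at 0.0924. That count was 359 without dim rows, 165 among named rows, 143 at a fold minimum of 2, 921 and 4285 at P under 0.01 and 0.05 with no fold minimum, and 463 to 934 with each array left out (934 without Control replicate 2). The cause was not tested. The median log2 fold change of the 23 members was -0.017 to 0.293 with each array left out, and that of the H/ACA guides -0.0715 to 0.228. A fold change could differ from the reported one only in 9 settings, 3 rescalings and 6 with an array left out. In these, 14 of the 23 members kept their direction, 8 positive and 6 negative, SCARNA2, SCARNA9 and SCARNA9L among them. After centering on array medians SCARNA10 was at -0.0243 and SCARNA11 at -0.00181. With each array left out, the log2 fold change was -0.0168 to 0.072 for SCARNA10, -0.0162 to 0.0652 for SCARNA11, -0.177 to 0.541 for SCARNA16, -0.243 to 0.0342 for SCARNA20, -0.0428 to 0.557 for SCARNA23, -0.0885 to 0.293 for SCARNA3, -0.0837 to 0.387 for SCARNA5, -0.0291 to 0.204 for SCARNA7 and -0.0392 to 0.229 for SCARNA8. The mixed guides had a median of -0.0503 to 0.229. The box classes and the setting without low-ID rows (506 calls) were chosen after the table had been seen.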
